A study of Mus musculus with 2 samples.

Results

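The genes of MHC class II presentation were described across the cells of a CD64 sort from the adult mouse thymus. The 10 genes H2-Aa, H2-Ab1, H2-Eb1, H2-DMa, H2-DMb1, H2-DMb2, H2-Oa, H2-Ob, Cd74 and Ciita were taken by their symbols from the 32285 gene rows of 1 single-cell library, and all 10 were found. The mice were C57BL/6 adults, with no treatment or mutation named, and the number of animals behind a library was not given in the sources used here. Cells positive for CD64, an Fc receptor of macrophages and many monocytes, were sorted and put through 10x Genomics 3′ chemistry, which counts each captured transcript once as a UMI (unique molecular identifier). The labels describe 1 group of 2 libraries, made in 2021 and 2024. The 2021 library held 3214 barcodes with a median of 2157.5 UMIs, of which 3185 were analysed, and the 2024 library held 2815 barcodes with a median of 5312 UMIs. The 2024 counts were used for these totals only, because they have 33696 gene rows with no gene names used here, and barcodes shared by the libraries were not counted. Every value below therefore comes from 1 library. No test was run. The 95% intervals are exact Poisson for levels, exact Clopper-Pearson for shares and a normal approximation on the log scale for ratios. They cover counting error only.

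MHC class II molecules are pairs of an α and a β chain that show peptides from endosomes to CD4 T cells, and in the thymus they take part in both positive and negative selection. H2-Aa and H2-Ab1 encode the 2 chains of I-A, and H2-Eb1 the β chain of I-E, whose α chain gene H2-Ea is not functional in C57BL/6 mice. The invariant chain, encoded by Cd74, fills the groove during transport and leaves a fragment there. H2-DM (H2-DMa with H2-DMb1 or H2-DMb2) exchanges that fragment for antigenic peptides, and H2-DO (H2-Oa with H2-Ob) binds H2-DM and restrains it. CIITA, the product of Ciita, is the coactivator that switches these genes on through the X and Y boxes of their promoters.

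The 8 H2 genes lie on chromosome 17 of GRCm38 between H2-Oa (chr17:34092340-34095234, plus strand) and H2-Eb1 (chr17:34305867-34316674, plus strand), in the GENCODE annotation. Ciita lies at chr16:10480059-10528418 on the plus strand. RefSeq promoters on GRCm38.p6, from 250 bases before to 50 after a start, were found for 7 of the 10 genes (8 entries), and H2-Ab1, Cd74 and Ciita had none in the table. The X box letters AACNNATG were searched on both strands, as were the Y box letters ATTGG and the cAMP response element TGACGTCA. An X box followed on the gene's strand by a Y box after 10 to 30 bases stood in the promoters of H2-Eb1, H2-DMb1, H2-DMb2 and H2-Ob. The same pair stood in 34 of 32851 promoters of that length (0.103%), which belong to 32 genes, and H2-Eb2 was 1 of the other genes. The X box alone was in 8.86% of promoters, the Y box in 37.4% and TGACGTCA in 1.79%. The letters of the X box were chosen after these promoters had been seen, so the count is a description. The 5 windows below run 5′ to 3′ from 160 to 21 bases before the start, because they show the pair with its gap of 20 to 23 bases, and capitals mark the motifs. The first 4 have the X box and then the Y box, and H2-Aa has TGACGTCA and then the Y box, with no marked runs overlapping. Only motifs on the gene's strand are marked, and the ATTGG on the opposite strand of the H2-Eb1 promoter is not.
H2-Eb1: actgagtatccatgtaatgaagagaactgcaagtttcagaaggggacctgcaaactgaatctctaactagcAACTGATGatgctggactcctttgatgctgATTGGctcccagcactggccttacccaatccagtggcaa
H2-DMb1: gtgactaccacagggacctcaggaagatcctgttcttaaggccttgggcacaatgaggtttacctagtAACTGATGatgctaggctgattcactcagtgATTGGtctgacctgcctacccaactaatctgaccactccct
H2-DMb2: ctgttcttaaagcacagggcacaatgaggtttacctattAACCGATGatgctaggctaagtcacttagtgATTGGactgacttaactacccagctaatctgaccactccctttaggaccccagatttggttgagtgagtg
H2-Ob: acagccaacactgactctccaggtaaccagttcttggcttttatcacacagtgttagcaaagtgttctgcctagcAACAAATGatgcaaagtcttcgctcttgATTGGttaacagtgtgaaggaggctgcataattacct
H2-Aa: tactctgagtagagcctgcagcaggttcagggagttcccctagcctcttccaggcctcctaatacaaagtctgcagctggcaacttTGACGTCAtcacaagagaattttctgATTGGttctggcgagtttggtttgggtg

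The X box began 89 bases before the start in H2-Eb1 (chr17:34305707-34305846, plus strand), 92 in H2-DMb1 (chr17:34153031-34153170, plus strand), 121 in H2-DMb2 (chr17:34145089-34145228, plus strand) and 85 in H2-Ob (chr17:34238745-34238884, plus strand). The gap from X box to Y box was 23 bases in both H2-DMb genes, 22 in H2-Eb1 and 20 in H2-Ob. The window of H2-Aa is chr17:34287844-34287983 on the minus strand. Neither promoter entry of H2-DMa and not the entry of H2-Oa held these X box letters.

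Cells were grouped into 21 clusters without the 10 genes or H2-Eb2, and the clusters were named from marker lists that hold none of them. Each cluster is called by its 2 leading genes. Of the 3185 cells, 383 (12.03%) were macrophage-like, in 3 clusters, although the labels give macrophage as the cell type. Another 408 (12.8%) were conventional dendritic cell (DC)-like and 118 (3.70%) mature DC-like. There were 211 B lineage-like cells, 304 classical monocyte-like and 179 nonclassical monocyte-like cells, 486 neutrophil-like cells, 386 T lineage-like cells and 295 NK and ILC-like cells. A cluster of 152 cells led by Cd209e and Cd209d had 7 of 9 plasmacytoid DC markers raised and also 5 of 14 conventional DC markers. Another 3 clusters stayed unnamed, led by Ccl17 and Mmp12 (122 cells, 6 of 14 conventional DC markers raised), by Hist1h2ae and Birc5 (117 cells) and by Elane and Prtn3 (13 cells).

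The summed classical chains H2-Aa, H2-Ab1 and H2-Eb1 ran from 0 to 34142 CPM (UMIs per 1000000 UMIs of the same cells) over the clusters. The Cd209e Cd209d cluster was highest at 34142 CPM (33672 to 34617), or 20146 UMIs. The unnamed Ccl17 Mmp12 cluster followed at 31767 CPM (31260 to 32281). A macrophage-like cluster led by Ccl12 and Cfb, with the interferon-induced chemokines Cxcl9 and Cxcl10 among its leading genes, came next at 27385 CPM (26963 to 27812). Conventional DC-like cells, at 22075 CPM (21827 to 22326), and mature DC-like cells, at 21861 CPM (21374 to 22356), had overlapping intervals. Then came a macrophage-like cluster led by Saa3 and Pf4 (11735 CPM, 11343 to 12136), the dividing Hist1h2ae Birc5 cluster (10844 CPM, 10601 to 11092) and B lineage-like cells (9376 CPM, 9096 to 9662). The macrophage-like cluster led by Gdf15 and Vcam1 stood at 6964 CPM (6627 to 7314), with 49.5% of its 1601 classical UMIs in 5 of 76 cells. Its leading genes also include the iron exporter gene Slc40a1 and Spic. Nonclassical monocyte-like cells had 5454 CPM (5195 to 5722) and classical monocyte-like cells 3651 CPM (3517 to 3789). The 4 neutrophil-like clusters ran from 335 to 1194 CPM, NK and ILC-like cells had 578 CPM, and the 11 mast cell and basophil-like cells had no classical UMI among 11330 (3 counts would be 265 CPM).

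**Figure D1:**
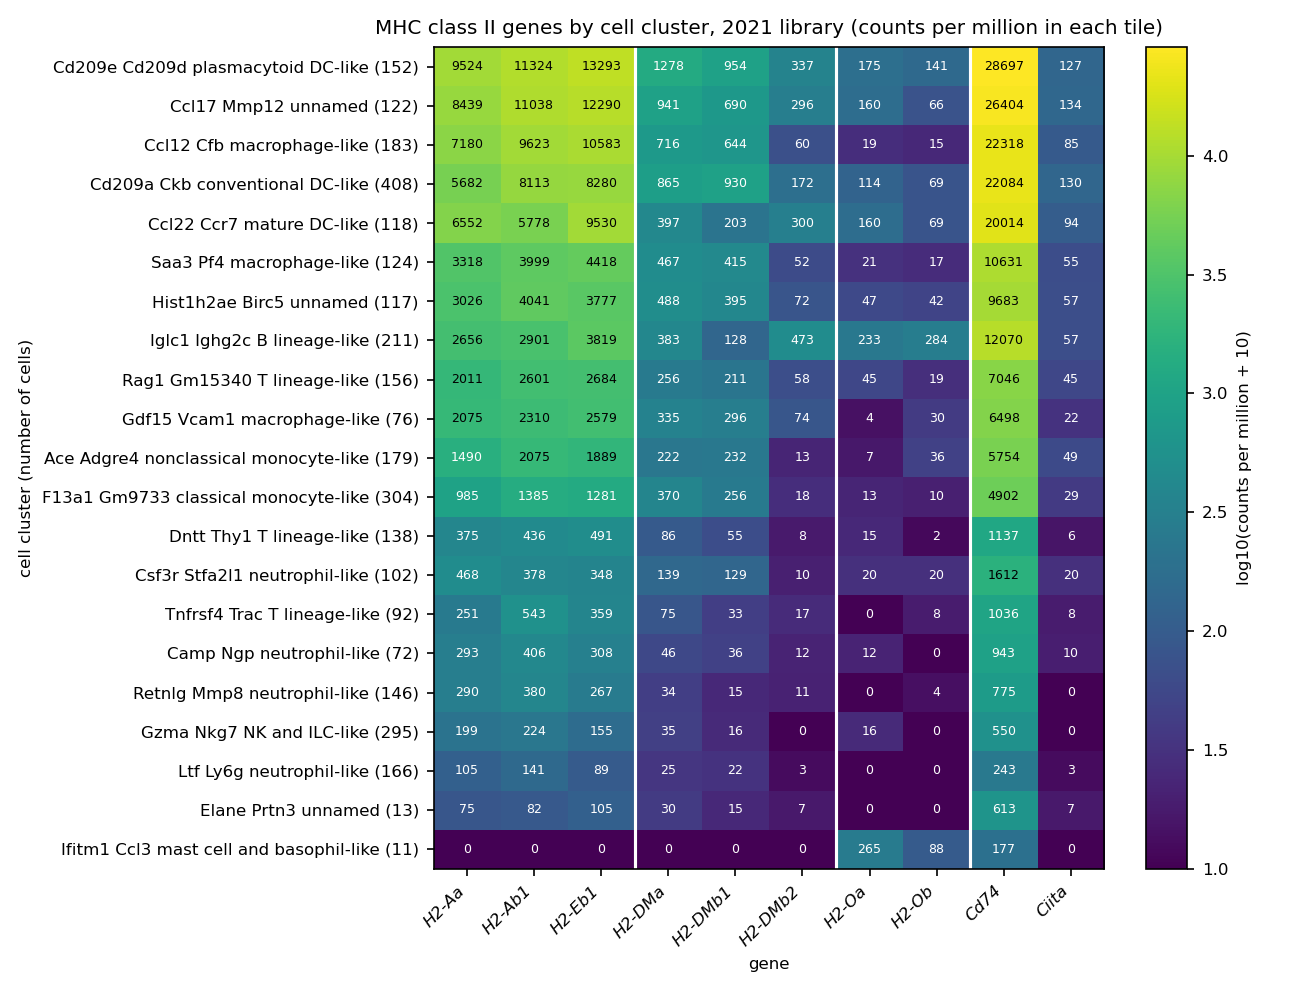
Level of each of the 10 genes (columns) in each of the 21 clusters (rows, number of cells in parentheses), as log10(CPM + 10) by colour with the CPM printed in each tile; rows are ordered by the summed classical chains. Beside the conventional DC-like row, the B lineage-like row is brighter in H2-DMb2, H2-Oa and H2-Ob and darker in H2-DMb1. The macrophage-like rows are dark in H2-Oa and H2-Ob at classical levels of up to 27385 CPM.

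The 3 macrophage-like clusters differed in the classical chains by more than their counting intervals, from 6964 to 27385 CPM. Each classical gene kept that order. H2-Ab1 stood at 9623 CPM in the Ccl12 Cfb cluster, 3999 in the Saa3 Pf4 cluster and 2310 in the Gdf15 Vcam1 cluster. Ciita was measured at 85.2, 55.4 and 21.7 CPM in the same clusters, from 50, 16 and 5 UMIs. H2-DM was closer together, at 1420.2, 934 and 705 CPM, so that DM UMIs per 100 classical UMIs were 5.19 (4.84 to 5.56), 7.96 (7.03 to 9.01) and 10.1 (8.61 to 11.9). The cluster with the most classical chain thus had the fewest DM UMIs beside them. The median cell had 26064, 1688 and 934 CPM of classical chains in these clusters. The summed values of the Gdf15 Vcam1 cluster rest on few cells, and 11.8% of its cells had a top doublet score. In the Saa3 Pf4 cluster 5 cells held 21.8% of the classical UMIs, and 11.3% of cells had such a score. These values were 9.69% and 7.10% in the Ccl12 Cfb cluster. The Ccl12 Cfb cluster held 16062 of the 21055 classical UMIs of macrophage-like cells. It also had 4 of 8 classical monocyte markers raised beside 5 of 22 macrophage markers.

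Levels within a cluster varied widely from cell to cell. Among conventional DC-like cells the 10th percentile was 4741 CPM, the median 22237 and the 90th percentile 38966, and 2.45% of cells had no classical UMI. Cells of the Ccl17 Mmp12 cluster were closest together among the high clusters, from 21659 CPM at the 10th to 44500.2 at the 90th percentile. B lineage-like cells spanned 4739 to 18944 CPM with a median of 10901. Mature DC-like cells spanned 777 to 45464 CPM. Macrophage-like cells spanned 0 to 43317 CPM with a median of 12531. In classical monocyte-like cells 56.2% had no classical UMI, yet the 90th percentile reached 11388 CPM, and in nonclassical monocyte-like cells these values were 55.9% and 17250.5 CPM.

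With each cell thinned to 2000 UMIs, and 127 shallower cells left out, 86.3% of macrophage-like cells (221 of 256, 81.5 to 90.3%) had a classical UMI, against 80.2% unthinned. The share was 98.1% in conventional DC-like cells (360 of 367), 96.3% in B lineage-like cells (79 of 82) and 43.7% in classical monocyte-like cells (90 of 206). Neutrophil-like cells, taken as the class that should lack class II, had such a UMI in 24.4% of cells (48 of 197, 18.5 to 31.0%), at 795 CPM. Their median depth was 1709 UMIs, against 2433 in macrophage-like cells. By cluster the share was 96.5% in the Ccl12 Cfb macrophage-like cells, 74.6% in the Saa3 Pf4 cells and 72.0% in the Gdf15 Vcam1 cells. Only 40 of 179 nonclassical monocyte-like cells reached 2000 UMIs, and 82.5% of those had a classical UMI against 44.1% unthinned.

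**Figure D2:**
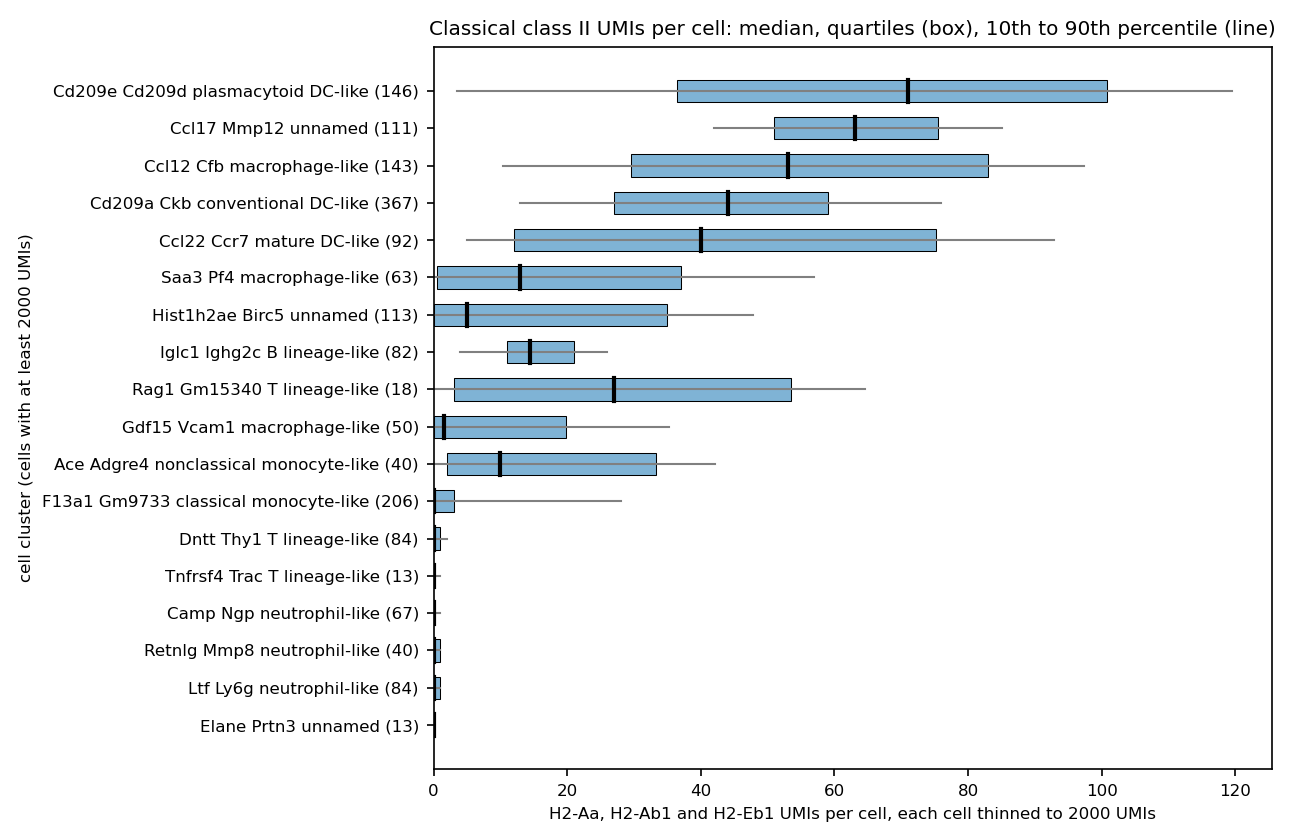
Classical class II UMIs per cell (x axis) after thinning each cell to 2000 UMIs, by cluster (y axis, number of cells that reach 2000 UMIs); black bars are medians, boxes quartiles and lines the 10th to 90th percentile. The Cd209e Cd209d cluster has a median of 71 UMIs, conventional DC-like cells 44, and classical monocyte-like and neutrophil-like cells 0, with a 90th percentile of 28 in classical monocyte-like cells.

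Classical UMIs of the T lineage-like, NK and ILC-like and neutrophil-like clusters sat in few cells, while in B lineage-like cells the top 5 cells held 9.72%. Of the 1139 classical UMIs of the T lineage-like cluster led by Rag1, 66.0% were in 5 cells, and 1096 were in a sub-cluster of 17 cells. Those 17 cells had 17941 CPM of classical chains, a median of 3276 UMIs, 7 of 14 conventional DC markers raised and a doublet score in the top 6% in 58.8% of cells. The other 139 cells had 452 CPM (327 to 609) and a median of 601 UMIs. In the Tnfrsf4 Trac cluster 5 cells held 91.3% of the classical UMIs, and in NK and ILC-like cells 63.4%. The part of doublets and of free RNA in these values was not tested.

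Between conventional DC-like and macrophage-like cells, the H2-DO genes differed most. H2-Oa was at 114 CPM in conventional DC-like cells (156 UMIs, 97.2 to 134) while macrophage-like cells had 18 UMIs of it, or 16.3 CPM (9.65 to 25.7). H2-Ob was at 69.0 and 19.0 CPM. H2-DMb2 was at 172 and 60.6 CPM. With 10 CPM added to both sides, 3 of the 10 genes, these ones, were at least 2-fold higher in conventional DC-like cells (log2 ratios 2.24, 1.45 and 1.36) and none lower, against 1.67% of 8449 genes higher and 11.5% lower. The median log2 ratio of the 10 genes was 0.72, and that of all genes −0.20. Median-of-ratios scaling moves every log2 ratio of this comparison by 0.30 towards higher values in conventional DC-like cells.

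The classical chains differed little between these classes as summed, at 22075 and 19046 CPM. The log2 ratio was 0.21 (0.19 to 0.24), or 0.51 after that scaling. The cells themselves were further apart, with medians of 22237 and 12531 CPM and 25th percentiles of 13529 and 499 CPM. The small summed ratio rested on the Ccl12 Cfb cluster: without that cluster the ratio was 1.20. H2-Aa gave 0.15, H2-Eb1 0.18, H2-Ab1 0.29, Cd74 0.47, H2-DMa 0.60, H2-DMb1 0.86 and Ciita 1.02, with no added CPM. DM per classical UMI was lower in macrophage-like cells by a log2 ratio of −0.57 (−0.67 to −0.47), and the ratio was −0.04 (−0.20 to 0.11) without the Ccl12 Cfb cluster. DO UMIs per 100 DM UMIs were 9.33 (8.19 to 10.6) in conventional DC-like and 3.08 (2.24 to 4.24) in macrophage-like cells.

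B lineage-like cells had another make-up of the accessory chains. Their classical chains, Cd74 and H2-DMa were all lower than in conventional DC-like cells, with log2 ratios of −1.24 (−1.28 to −1.19), −0.87 and −1.18. The H2-DMβ genes went opposite ways. H2-DMb1 was at 128 CPM in B lineage-like cells (58 UMIs, 96.9 to 165) and at 929.8 CPM in conventional DC-like cells (1267 UMIs, 879 to 982), while H2-DMb2 was at 473 CPM (215 UMIs, 412 to 541) and at 172 CPM (234 UMIs, 150.4 to 195). H2-Oa was at 233 against 114 CPM and H2-Ob at 284 against 69.0 CPM. Thus 2 of 10 genes, H2-DMb2 and H2-Ob, were at least 2-fold higher, against 6.65% of 7201 genes, and 6 were at least 2-fold lower, against 10.6%. The 6 were the 3 classical genes, H2-DMa, H2-DMb1 and Ciita, and H2-Oa (0.97) and Cd74 (−0.87) fell short of 2-fold. The median over all genes was −0.11 and over the 10 genes −1.08.

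The DO to DM ratio was 52.6 UMIs per 100 (44.9 to 61.6) in B lineage-like cells, a log2 ratio of 2.49 (2.20 to 2.79) over conventional DC-like cells. It was the highest ratio among the clusters with at least 70 DM UMIs. Mature DC-like cells had 25.4 (19.9 to 32.5), the Cd209e Cd209d cluster 12.3 (10.5 to 14.3) and classical monocyte-like cells 3.64 (2.28 to 5.83). The H2-DMb2 share of H2-DMβ UMIs was 78.8% in B lineage-like cells (73.4 to 83.5%), 59.7% in mature DC-like cells (52.0 to 67.0%), 15.6% in conventional DC-like cells (13.8 to 17.5%) and 6.67% in classical monocyte-like cells (3.69 to 10.9%). Of the runs of 50 bases in the last 500 bases of the longest H2-DMb1 transcript, 20.4% are also in H2-DMb2, so that some reads of this pair could be shared or dropped. None of the runs in the last 500 bases of H2-DMb2 is in H2-DMb1.

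**Figure D3:**
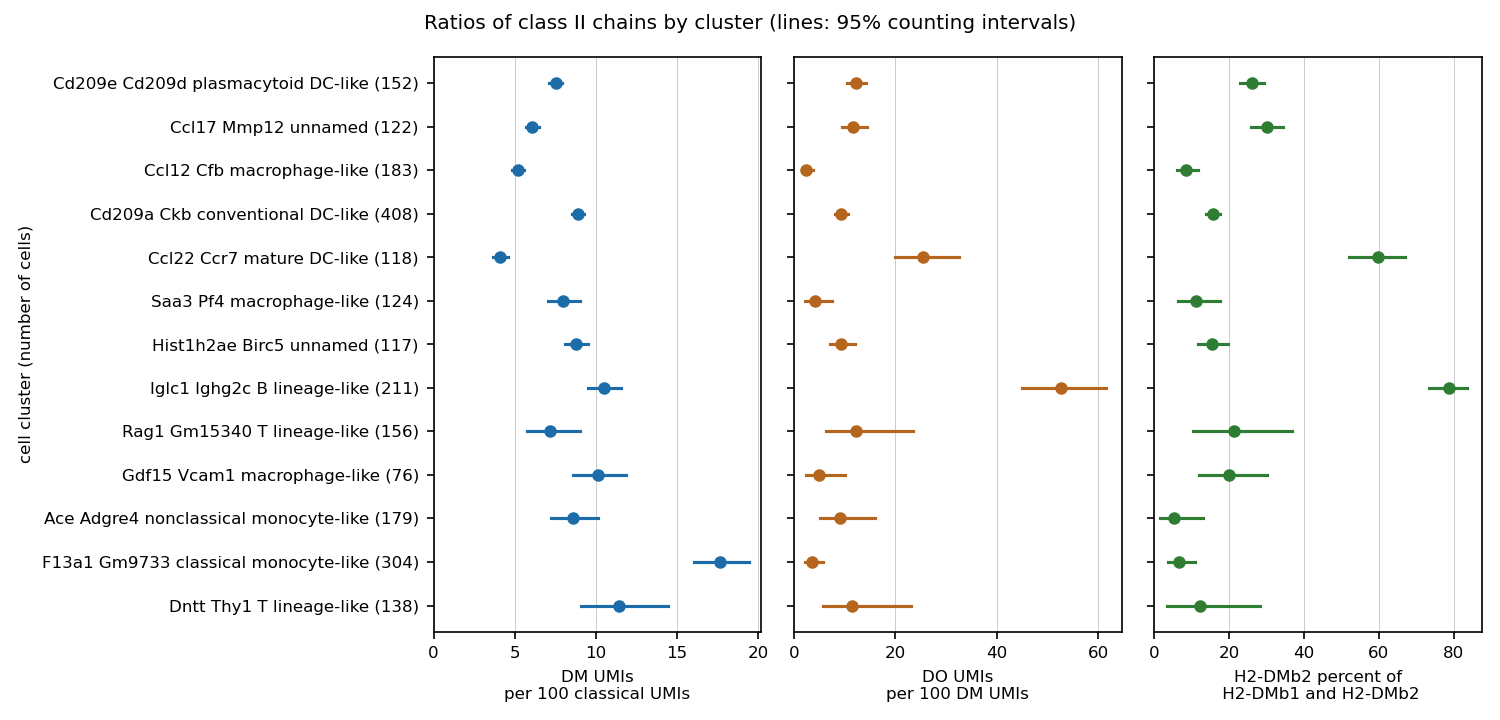
DM UMIs per 100 classical UMIs, DO UMIs per 100 DM UMIs and the H2-DMb2 percent of H2-DMβ UMIs (x axes of the 3 panels) in the 13 clusters with at least 70 DM UMIs (y axis, number of cells); points are ratios of summed UMIs and lines 95% counting intervals. Classical monocyte-like cells stand apart in the first panel at 17.6, and B lineage-like and mature DC-like cells in the other panels at 52.6 and 25.4 per 100 and at 78.8% and 59.7%.

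The B lineage-like cluster split into 4 sub-clusters. The largest, 131 cells that held 34 of the 36 UMIs of Fcer2a (the IgE receptor CD23), had H2-Oa at 436 CPM (94 UMIs, 352 to 534) and H2-Ob at 413 CPM (89 UMIs, 332 to 508). A second one of 53 cells, led by Tppp3, with 5 of 12 T lineage markers raised and with no Fcer2a or Cr2 UMI among 117706, had H2-Oa at 34.0 CPM (4 UMIs, 9.26 to 87.0) and H2-Ob at 255 CPM (30 UMIs, 172 to 364). H2-Oa was thus 11.8% of DO UMIs there (3.30 to 27.5%) and 51.4% in the largest sub-cluster (43.9 to 58.8%). Over 10 settings, the main one included, H2-Oa ran from 8.995 to 34.0 CPM in the sub-cluster highest in Tppp3. In the one highest in Fcer2a it ran from 264 to 449.5 CPM. Both had a high H2-DMb2 share, 90.4% and 79.8%, but the Tppp3 cells had 1 Ciita UMI (8.50 CPM) and the others 22 (102 CPM). Another 10 cells, led by Jchain with 28462 CPM and with 6 of 8 plasma cell markers raised, had 710.1 CPM of classical chains, 2 H2-Aa UMIs and no Ciita UMI among 67598 (3 counts would be 44.4 CPM). The remaining 17 cells had 8 of 22 macrophage markers raised, and 47.1% of them had a top doublet score.

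Mature DC-like cells, which carry Ccr7 and Fscn1, had the classical level of conventional DC-like cells with less H2-DM. The classical log2 ratio was −0.01 (−0.05 to 0.02), and the median over all genes was −0.18, so relative to that median it was positive, as it was for Cd74 (−0.14). The classical genes were unequal: H2-Ab1 stood at 5778.5 CPM against 8113 (−0.49), while H2-Aa (0.21) and H2-Eb1 (0.20) were slightly higher. H2-Aa UMIs per 100 H2-Ab1 UMIs were 113 (107 to 120.4) in mature DC-like and 70.04 (68.0 to 72.1) in conventional DC-like cells. H2-DMa stood at 397 against 865 CPM and H2-DMb1 at 203 against 929.8 CPM, and these 2 of 10 genes were at least 2-fold lower, against 14.4% of 6980 genes. None was at least 2-fold higher, against 9.48%, and H2-DMb2 had a log2 ratio of 0.80 (0.47 to 1.14). DM UMIs per 100 classical UMIs were 4.11 (3.68 to 4.60), the lowest of the 13 clusters with at least 70 DM UMIs. Of these cells, 59 formed a sub-cluster led by S100a8 and S100a9 with 6 of 12 neutrophil markers raised and 15139 CPM of classical chains, and 40 formed one with 30115 CPM. The H2-DMb2 share was 47.4% and 67.2% in them, and the part of neutrophil RNA was not tested.

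Conventional DC-like cells were themselves of several kinds. A sub-cluster of 147 cells led by Ltb and Epcam had 29772 CPM of classical chains, and one of 117 cells led by Cd7 and Ccl4, with 5 of 9 plasmacytoid DC markers raised, had 13581 CPM. H2-DM stood at 2068 CPM (1941 to 2202) and 2074 CPM (1924 to 2233), with overlapping intervals, but its make-up differed. H2-DMb2 was 31.99% of H2-DMβ UMIs (28.0 to 36.2%) in the Ltb Epcam cells and 4.38% (2.57 to 6.92%) in the Cd7 Ccl4 cells. H2-DO stood at 322 and 88.2 CPM. The 74 cells with Xcr1, the chemokine receptor of cross-presenting DCs, had 19698 CPM of classical chains and an H2-DMb2 share of 7.64%. The last 70 cells, led by Axl and Lyz2, had 1 H2-Ob UMI beside 13 of H2-Oa, 6 of 22 macrophage markers raised and a top doublet score in 27.1% of cells.

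The Cd209e Cd209d cluster held a like split. Its 79 cells led by Dnase1l3 and Ear2 had the highest classical level of the 41 sub-clusters, 41891 CPM (41195 to 42595), with H2-DMb1 at 594 CPM, H2-DMb2 at 500.4 CPM and H2-DO at 446 CPM. The other 73 cells, led by Calm4 and Ly6c2, had 24328 CPM of classical chains, H2-DMb1 at 1409.6 CPM, H2-DMb2 at 131 CPM and H2-DO at 149.8 CPM. The H2-DMb2 share was 45.7% (40.5 to 51.0%) and 8.48% (5.94 to 11.6%). In the first set 6 of 10 mature DC markers and 5 of 22 macrophage markers were raised over the other.

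**Figure D4:**
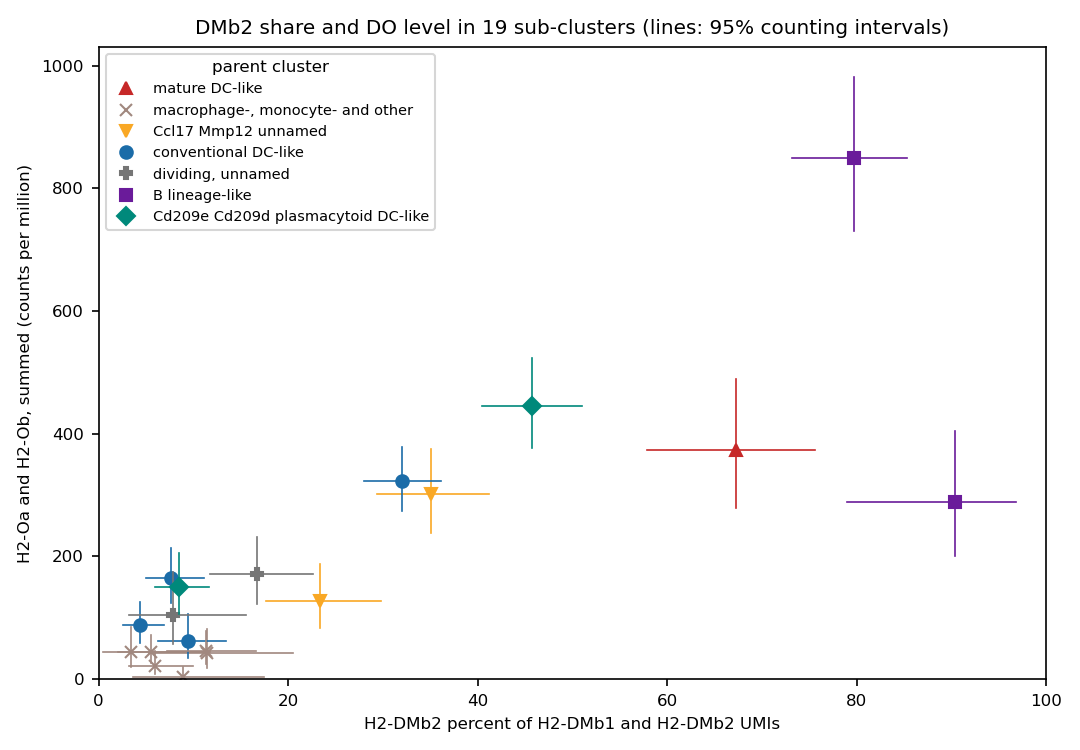
H2-DMb2 percent of H2-DMβ UMIs (x axis) against H2-Oa and H2-Ob summed in CPM (y axis) in the 19 sub-clusters with at least 50 H2-DMβ UMIs, coloured by parent cluster, with 95% counting intervals as lines. The DC sub-clusters with shares of 31.99%, 45.7% and 67.2% have 322, 446 and 374 CPM of H2-DO, macrophage-like and monocyte-like ones lie at the lower left, and the B lineage-like ones at the right with 849 and 289 CPM.

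Classical monocyte-like cells had few classical chains but much H2-DM beside them. DM UMIs per 100 classical UMIs were 17.6 (16.0 to 19.4), and Cd74 UMIs per 100 classical UMIs were 134 (128 to 141), against 8.91 and 100.04 in conventional DC-like cells. In macrophage-like over classical monocyte-like cells, 5 of the 10 genes were at least 2-fold higher, against 8.63% of 7809 genes, and none lower, against 1.63%. They were H2-Aa (985 and 5108 CPM), H2-Ab1 (1385 and 6631 CPM), H2-Eb1 (1281 and 7306 CPM), H2-DMb2 (18.3 and 60.6 CPM) and Cd74 (4902 and 15972 CPM). The summed classical log2 ratio was 2.38 (2.33 to 2.44), that of H2-DM 0.83 (0.68 to 0.98) and that of H2-DO 0.59 (−0.22 to 1.39), beside 0.16 for the median gene. The classical value moved most with how cells were grouped and filtered, from 0.78 with no filter on barcodes to 3.14 without the highest doublet scores. These ratios rest largely on the Ccl12 Cfb cluster, which had 4 of 8 classical monocyte markers raised. It held 16062 of the 21055 classical UMIs and 13090 of the 17657 Cd74 UMIs of macrophage-like cells. The comparison with classical monocyte-like cells was not run without that cluster. Dividing monocyte-like cells, a sub-cluster of 29 led by Pclaf and Cenpa, had 71 classical UMIs beside 54 of H2-DM. That is 76.1 DM UMIs per 100 (53.4 to 108), but 5 cells held 90.1% of the classical UMIs and 17 had none. The sub-cluster had no H2-DO or Ciita UMI among 101509 (3 counts would be 29.6 CPM).

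The dividing Hist1h2ae Birc5 cluster was a mixture. Its 60 cells with 7 of 8 classical monocyte markers raised had 1465 CPM of classical chains (1336 to 1604). They had no Ciita UMI among 322084 (3 counts would be 9.31 CPM). Of these cells 66.7% had no classical UMI, and 5 cells held 82.6% of the 472 classical UMIs. Macrophage (6 of 22), B lineage (4 of 10) and neutrophil (4 of 12) markers were also raised in them. The cluster's 17 cells led by Xcr1 had 17634 CPM and its 40 cells led by Cd209d and Mgl2 had 19622 CPM. In these 57 DC cells none of the 10 genes was 2-fold higher (against 4.90% of 7018 genes) or lower (against 2.47%) than in conventional DC-like cells. The classical log2 ratio was −0.22 (−0.26 to −0.19) and that of H2-DM −0.44 (−0.57 to −0.30).

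Ciita itself was sparse, with 541 UMIs in all 3185 cells. It was highest in the Ccl17 Mmp12 cluster (134 CPM), conventional DC-like cells (129.9 CPM, 111 to 150.5) and the Cd209e Cd209d cluster (127 CPM, 99.98 to 159), whose order is not resolved. Macrophage-like cells had 64.2 CPM (50.2 to 81.0), B lineage-like cells 57.2 CPM (37.4 to 83.8), classical monocyte-like cells 28.7 CPM (18.0 to 43.5) and neutrophil-like cells 6.12 CPM (2.46 to 12.6). NK and ILC-like cells had none among 316485 UMIs (3 counts would be 9.48 CPM). Ciita overlaps Dexi on the opposite strand, as H2-Eb1 overlaps Gm20513 and H2-Oa overlaps BC051537. H2-DMa overlaps 4 annotated genes, Brd2, CR974462.4 and Gm20493 on the opposite strand and CR974462.3 on the same strand. Cd74 overlaps Mir5107 on the same strand. Whether strand was used in counting is not given in the sources used here, so reads of such pairs cannot be told apart.

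Across the 19 clusters of at least 40 cells, log2(CPM + 10) of the summed classical chains followed that of Cd74 with a Pearson r of 0.994, H2-DM with 0.967, Ciita with 0.959 and H2-DO with 0.816. These clusters share 1 library and differ in depth. Among 4395 other genes, the 5 most like the classical chains were Ifi30 (0.966), Plekho1 (0.911), Tmem176b (0.908), Syngr2 (0.903) and Tmem176a (0.896). Ifi30, which encodes the lysosomal thiol reductase that opens disulfide bonds of antigens, was also the most like H2-DM (0.974), before Plekho1, Ly86, Tep1 and Erp29. The 5 most like H2-DO were Pafah1b3 (0.829), Irf4 (0.825), Dnajc7 (0.824), Cbfa2t3 (0.820) and Bcl11a (0.811). H2-DO followed H2-DMb2 (0.925) more closely than H2-DMb1 (0.699).

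Other genes of the pathway came from 8 lists with 46 symbols. The regulatory factors that bind class II promoters (Rfx5, Rfxap, Rfxank, Creb1 and the Nfy genes) had 0 of 7 members past 2-fold between conventional DC-like and macrophage-like cells (1.67% of all genes higher, 11.5% lower), and 0 of 7 between B lineage-like and conventional DC-like cells (6.65% and 10.6%). In mature DC-like over conventional DC-like cells 1 of 7 was higher, Rfxank, at 34.3 against 8.07 CPM from 12 and 11 UMIs. With so few members, such counts are near the shares of all genes. In the invariant chain and antigen proteases list 6 of 8 genes were at least 2-fold lower in conventional DC-like than in macrophage-like cells and 1 was higher. Ctsd, a lysosomal aspartic protease, stood at 30.8 against 882 CPM, Ctsb at 125 against 1555 CPM, and Ctss, which trims the invariant chain, at 693 against 1916 CPM. The higher one was Cst3, a cysteine protease inhibitor, at 9984 against 3746 CPM. In all lists 4 of 40 tested genes were higher and 13 lower, beside the 1.67% and 11.5% of all genes. The higher ones include Zbtb46 and Batf3, which are also conventional DC markers, so these calls are not independent of the naming.

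Over conventional DC-like cells, mature DC-like cells had all 6 genes of the costimulation list at least 2-fold higher. That list holds Cd40 (303 against 51.4 CPM) and also the inhibitory ligand genes Cd274 (271 against 11.0 CPM) and Pdcd1lg2. Cd83, which keeps class II at the surface, stood at 679 against 129.9 CPM, and March1, whose ubiquitin ligase removes class II from it, at 11.4 against 44.8 CPM. In all lists 12 of 35 genes were higher and 2 lower, the other lower gene being Ifngr1, beside 9.48% of all genes higher and 14.4% lower. H2-Eb2, the other class II β gene of the region, had 55 UMIs in mature DC-like cells (157 CPM, 118 to 204), 31 in B lineage-like cells (68.2 CPM) and 4 in conventional DC-like cells (2.94 CPM). In B lineage-like over conventional DC-like cells 11 of 40 genes were higher and 7 lower, beside 6.65% and 10.6% of all genes. The higher ones included all 5 B cell receptor genes, 3 of which are also B lineage markers, and Pax5, another such marker. The lower ones included the conventional DC markers Zbtb46 and Batf3. Calls of these markers are not independent of the naming. Macrophage-like over classical monocyte-like cells gave 13 of 38 higher and 0 lower, beside 8.63% and 1.63% of all genes, with Ctsd (882 against 99.1 CPM) and Lgmn (490.3 against 69.1 CPM) the largest.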

How the data were processed

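Single cells of adult C57BL/6 mouse thymus sorted on CD64 were measured by 10x 3′ RNA-seq. The values deposited by the authors are unnormalized UMI counts. Per the file headers, Cell Ranger 6.0.0 wrote those of 2021 and Cell Ranger 8.0.0 those of 2024. The build is mm10 per the submitters' processing notes, and the annotation release and intron setting are not given in the sources used here. The 2021 library has 8534578 UMIs and the 2024 library 24569270. In the 2021 library, 3188 of 3214 barcodes passed a minimum of 500 UMIs and 300 genes and a maximum of 10% mitochondrial UMIs. Scrublet in scanpy 1.11.5 (expected rate 6%) called 3 doublets, which were removed, a share too low to show that it worked, so most doublets may remain. A top doublet score is one in the highest 6% of cells. Leiden clustering (igraph 0.11.9) used 2000 variable genes, 30 components, 15 neighbours and resolution 1, and clusters of at least 100 cells were split at resolution 0.5. A marker was raised where its log2 ratio over the remaining cells reached 1 with at least 3 UMIs. To be named, a cluster needed 3 raised markers of a class, and its 10 leading genes could not hold more markers of another class. The serous cavity macrophage list was pooled with the macrophage list. These naming details were set after the clusters had been seen. Sub-clusters were compared with the rest of their parent. Calls of 2-fold use 10 CPM added to both sides and genes with at least 15 UMIs in the pair of classes, and this step was tested on simulated data. Shares used cells thinned to 2000 UMIs. Other software was pandas 2.3.3, scipy 1.17.1, numpy 2.4.6 and Python 3.11.15. The 10 genes, the marker lists and the pathway lists were chosen with earlier results of these data known. All 10 genes are named, and of the pathway lists the genes with the largest ratios or needed for a count, plus a few picked after their values were seen. Genes most like a chain group needed at least 200 UMIs and were no immunoglobulin, T cell receptor, ribosomal or mitochondrial genes. The alternatives changed the cell filter, doublets, resolution, class definition, scaling and thinning.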

Additional observations from a re-analysis of the deposited data

How the results depend on the processing

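The classical chain log2 ratio of conventional DC-like over macrophage-like cells (0.21) was positive in every alternative run. It was 0.46 with a stricter cell filter, 0.39 with no filter on barcodes and 0.29 without the highest doublet scores. It was 0.47 and 0.44 at cluster resolutions 0.5 and 2.0, and 0.60 with class II genes kept for clustering. It was 0.47 with classes set by marker UMIs, 0.38 as the mean of cells and 0.51 with median-of-ratios scaling. Without the Ccl12 Cfb cluster it was 1.20. That run could only raise the ratio, because the macrophage-like cluster with the highest level was the one left out. The log2 ratio of DM per classical UMI in macrophage-like over conventional DC-like cells (−0.57) was −0.41 with the stricter filter, −0.39 without the highest doublet scores, −0.42 at both resolutions, −0.27 with class II genes kept and −0.042 without the Ccl12 Cfb cluster. The 86.3% of macrophage-like cells that had a classical UMI became 77.0% after thinning to 1000 UMIs, 80.2% unthinned and 73.5% without the Ccl12 Cfb cluster. The DO to DM log2 ratio of B lineage-like over conventional DC-like cells (2.49) stayed within its interval in each alternative, including one without the 27 B lineage-like cells of plasma or myeloid sub-clusters. Leaving out the Ccl12 Cfb cluster, those 27 cells and the other sub-cluster resolutions were alternatives chosen after seeing the data. Of 229 recomputed values of 27 further results, 0 were counted as reversed and 124 stayed within the counting interval. These values include H2-Oa levels of B sub-clusters, which have no direction and could not be counted as reversed. The causes of the shifts between settings were not tested. With 1 library no spread between animals can be given, and Ciita, H2-Oa and H2-Ob rest on under 200 UMIs in each class. No paired analysis was possible because the labels give 1 group, so no replicate numbers are shared between groups.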
